A study of Mus musculus with 9 samples.

Results

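Butyrate enters and leaves cells of the colon by a small set of carriers, and 5 mouse genes of that set were followed here across 9 arrays: Slc5a8, Slc16a1, Slc16a7, Slc16a3 and Bsg. They were chosen by name, as the carriers of butyrate and lactate and the chaperone of the carriers, with earlier results of these data known. Every probe whose RefSeq accession maps to one of the 5 symbols was kept. This gave 5 of 18353 named genes and 7 of 41174 probes, since Slc16a1 has 3 probes and each of the others has 1. All 7 probes were well above background on all 9 arrays.

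The arrays measured total RNA of normal colonic mucosa from ICR mice, an outbred stock, with 1 dye (Cy3). Every mouse had been given weekly subcutaneous injections of 1,2-dimethylhydrazine (DMH), a carcinogen that causes colon tumors in rodents, at 20 mg/kg for 20 weeks, so no group was free of the carcinogen. In 6 samples the mice also drank 1.5% butyrate in their water: 3 are titled as from animals with tumors ("butyrate with tumors") and 3 as from animals without ("butyrate without tumors"). The 3 remaining samples came from mice on plain water and normal food ("DMH"), the labelled control. The ages and sexes are not given in the sources used here, nor whether each sample is a separate animal, so a p-value covers the spread between these samples, which may be technical. One label field assigns the opposite tumor status to all 6 butyrate samples. Were that field the correct one, the values called "with tumors" and "without tumors" would change places, and each difference between them would change its sign.

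Butyrate is made by bacteria in the colon and is the main fuel of colonocytes. Slc5a8 encodes a sodium-coupled carrier of the apical membrane that takes up butyrate, lactate and pyruvate, and its human counterpart is often silenced in colon cancer. The Slc16a genes encode proton-coupled monocarboxylate transporters: Slc16a1 (MCT1) carries butyrate and lactate, Slc16a7 (MCT2) has a high affinity for pyruvate and lactate, and Slc16a3 (MCT4) exports lactate from glycolytic cells. Bsg encodes basigin, the membrane glycoprotein that MCT1 and MCT4 need to reach the cell surface.

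The 250 bases before the annotated gene start were read for the 3 carriers that RefSeq's promoter table (GRCm38.p6) holds, so that the carriers can be set side by side: Slc16a3 is a known target of hypoxia-inducible factors, which bind an ACGTG core, and GC boxes mark promoters bound by Sp factors. Capitals mark matches, on either strand, to CACGTG (E-box), ACGTG (the hypoxia core, which an E-box also contains on both strands) or GGGCGG (GC box). Bsg and Slc16a7 are named only.
Slc5a8, chr10:88885742-88885991, plus strand: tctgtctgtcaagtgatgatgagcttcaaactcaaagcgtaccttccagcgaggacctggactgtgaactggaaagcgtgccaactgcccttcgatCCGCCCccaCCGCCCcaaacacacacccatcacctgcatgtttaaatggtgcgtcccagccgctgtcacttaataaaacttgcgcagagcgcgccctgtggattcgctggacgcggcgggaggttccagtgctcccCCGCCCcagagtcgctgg
Slc16a1, chr3:104638414-104638663, plus strand: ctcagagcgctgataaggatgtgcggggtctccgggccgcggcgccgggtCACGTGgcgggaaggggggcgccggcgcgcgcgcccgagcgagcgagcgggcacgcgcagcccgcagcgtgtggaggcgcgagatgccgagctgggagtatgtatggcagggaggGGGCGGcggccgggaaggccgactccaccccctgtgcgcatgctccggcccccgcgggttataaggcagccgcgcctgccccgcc
Slc16a3, chr11:120948817-120949066, plus strand: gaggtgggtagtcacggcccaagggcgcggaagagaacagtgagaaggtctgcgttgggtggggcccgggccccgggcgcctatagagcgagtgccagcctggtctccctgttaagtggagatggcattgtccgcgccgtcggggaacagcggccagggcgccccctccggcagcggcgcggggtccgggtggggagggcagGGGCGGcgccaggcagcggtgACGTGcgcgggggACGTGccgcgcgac
The Slc5a8 stretch held 3 GC boxes and neither of the other motifs, with 17 CG steps. The Slc16a1 stretch held 1 E-box, which begins 200 bases before the gene start and accounts for both of its ACGTG matches, and 1 GC box, with 37 CG steps. The Slc16a3 stretch held ACGTG at 27 and at 14 bases before the start and 1 GC box, with 29 CG steps. Over 32536 promoters of the same length the E-box letters occurred in 6.04% of promoters, ACGTG in 16.7% and the GC box in 33.0%, and the median promoter held 6 CG steps. These matches describe the letters of the window only.

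Levels below are log2 signal with the 75th percentile of the array set to 0, and a change is a difference of such levels. They do not compare 1 gene with another, since probes differ in brightness. The signal at the 75th percentile ran from 188 in butyrate with tumors array 1 to 880 in array 3 of that group, and between 57.8% and 72.5% of the spots of an array stood well above background. Replicates lay closest together in DMH, with a median SD per probe of 0.115, against 0.383 in butyrate with tumors and 0.268 in butyrate without tumors. The 3 butyrate arrays without tumors shared slide 1 with array 1 with tumors, arrays 2 and 3 with tumors lay on slide 2, and DMH had slides 3 and 4 and a scan day of its own. Slide and scan day therefore cannot be told apart from treatment in any comparison with DMH. All 10 epithelial markers of the tissue check, among them Epcam, Krt8 and Cdh1, were well above background on all 9 arrays.

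**Figure D1:**
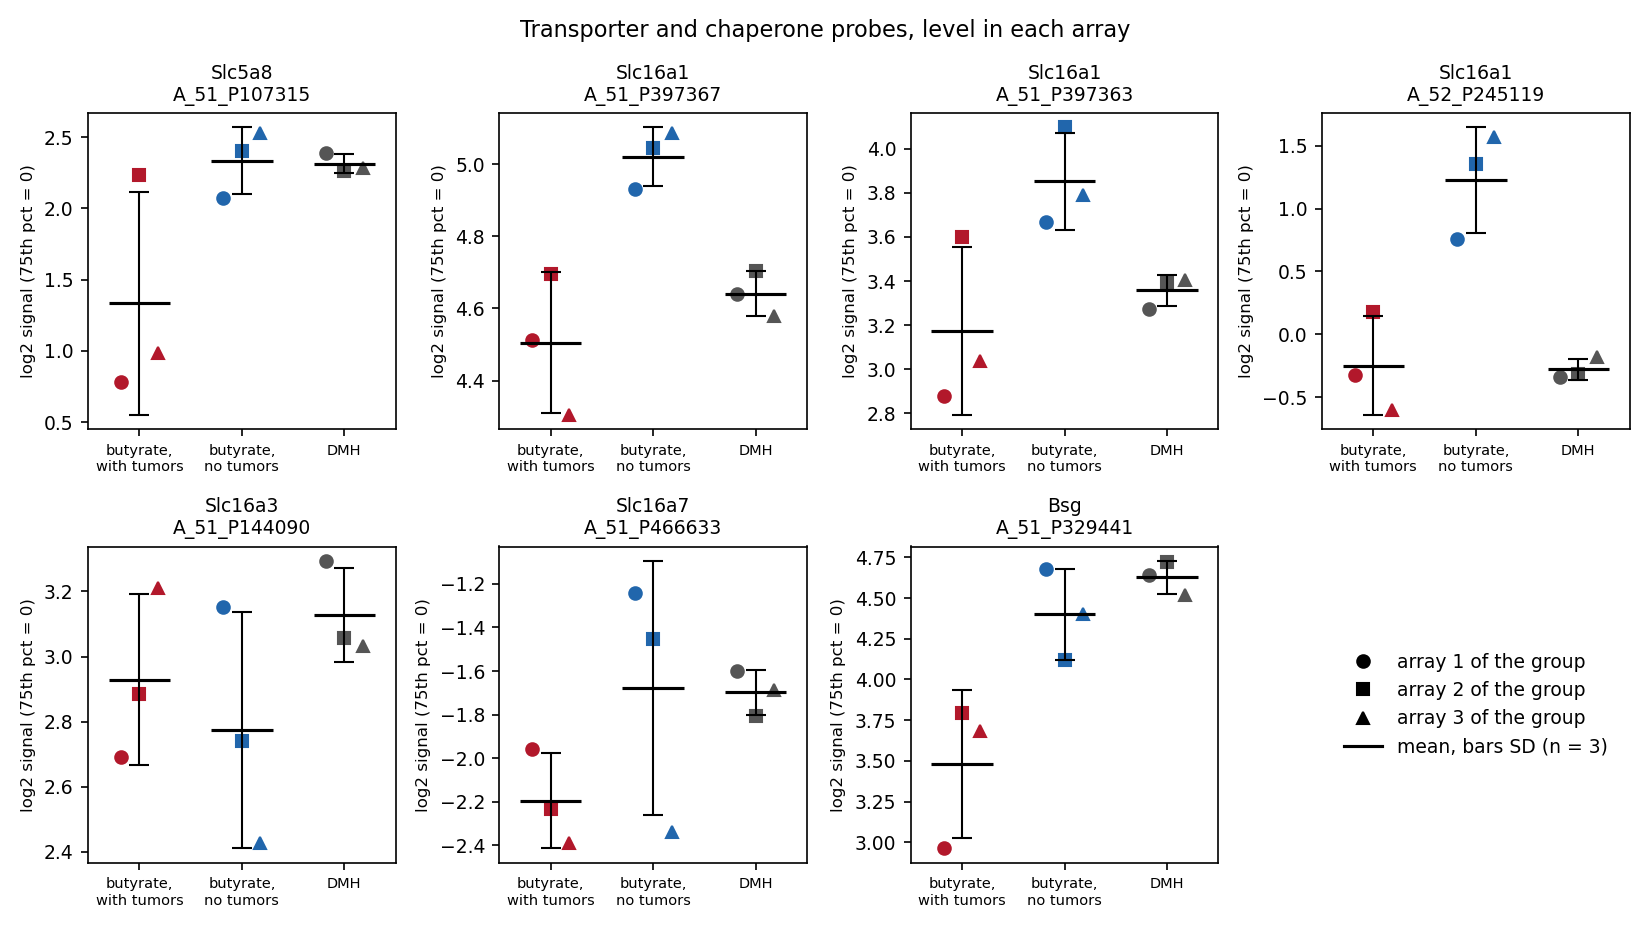
Level of each of the 7 probes (vertical axes, log2 signal with the array's 75th percentile at 0, each with its own range) in butyrate with tumors, butyrate without tumors and DMH. Points are arrays, shaped by array number, the long line is the group mean and the bars are the SD (n = 3). The 3 Bsg values with tumors lie below every other Bsg value, and the 3 values without tumors of Slc16a1 probe A_52_P245119 lie above every other value of that probe.

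Across the whole array, 9.05% of 28521 tested probes passed an adjusted p of 0.05 for all butyrate against DMH, 5.27% for butyrate with tumors against DMH (2.91% higher, 2.36% lower), 30.2% for butyrate without tumors against DMH and 13.2% for the 2 butyrate groups (limma, Benjamini-Hochberg over all probes). Of the 7 transporter and chaperone probes, 0 passed in the first of these comparisons, 1 (Bsg) in the second, 1 (the dimmest Slc16a1 probe) in the third and 2 (these same probes) in the fourth. With so few probes these counts do not set the carriers apart from the array as a whole. In limma's first comparison 8890 of all tested probes, and none of the 7, had an unadjusted p under 0.05.

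Slc5a8, the sodium-coupled butyrate carrier, was low on a pair of the arrays with tumors and near the DMH level on the third. Its probe A_51_P107315 read 0.78, 2.23 and 0.99 in butyrate with tumors, 2.08, 2.40 and 2.53 in butyrate without tumors, and 2.39, 2.26 and 2.29 in DMH. Arrays 1 and 3 with tumors stood more than 1 log2 unit below all other arrays, while array 2 with tumors lay just under the lowest DMH value and inside the range of the group without tumors. The mean was thus 1.33 ± 0.78 with tumors, 2.33 ± 0.23 without tumors and 2.31 ± 0.07 in DMH (SD, n = 3 each). The change was -0.98 ± 0.35 (SE) with tumors against DMH, with a 95% interval of -1.78 to -0.18 and an adjusted p of 0.111 (limma). Set against the group without tumors it was 2.00-fold lower with an SE of 0.35 on the log2 scale (adjusted p = 0.0876, limma). Neither passed, although the groups with tumors and DMH did not overlap, which held for 42.8% of all tested probes (21.6% with the lower values in the group with tumors). Without array 2 with tumors the same changes were -1.43 (adjusted p = 0.0234, limma) and -1.45 (adjusted p = 0.0138, limma), so leaving out 1 array changed both calls. In the authors' deposited values, which centre each array otherwise, they were -1.15 (adjusted p = 0.0484) and -1.29 (adjusted p = 0.0226, limma). That centring lowers all probes by a common amount in each of these comparisons, so both values include a shift of the whole array. Slc5a8 without tumors differed from DMH by 0.02 ± 0.35, an interval of -0.78 to 0.82, and the sign of this small value turned under several alternatives. Over all butyrate arrays against DMH the change was -0.48 ± 0.41 (adjusted p = 0.447, limma), with 4 of 6 arrays below the lowest DMH array.

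Slc16a1, the proton-coupled carrier of butyrate and lactate, was read by 3 probes whose means differed the same way between the butyrate groups but by unlike amounts. The brightest, A_51_P397367, read 4.51, 4.70 and 4.30 in butyrate with tumors, 4.93, 5.05 and 5.09 in butyrate without tumors, and 4.64, 4.70 and 4.58 in DMH. A_51_P397363 read 2.88, 3.60 and 3.04 with tumors, 3.67, 4.10 and 3.79 without tumors, and 3.27, 3.39 and 3.41 in DMH. A_52_P245119, the dimmest, read -0.32, 0.18 and -0.60 with tumors, 0.76, 1.35 and 1.57 without tumors, and -0.34, -0.31 and -0.18 in DMH. On all 3 probes every array without tumors lay above every array of both other groups, whereas the values with tumors spread around those of DMH.

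The test called 1 of the 3 probes. In butyrate without tumors, A_52_P245119 rose against DMH by 1.50 ± 0.26 (95% interval 0.90 to 2.11), a fold of 2.84, with an adjusted p of 0.00650 (limma). The call was lost with slide as a random block (1.54, adjusted p = 0.0693) and with no scaling between arrays (0.42, adjusted p = 0.673, limma). The brightest probe changed by 0.38 ± 0.15 (adjusted p = 0.0925, limma) and A_51_P397363 by 0.50 ± 0.22 (adjusted p = 0.115, limma), both short of the threshold. Groups that do not overlap were frequent in this comparison, at 59.8% of all tested probes. With tumors against DMH the 3 probes changed by -0.14 ± 0.15, -0.18 ± 0.22 and 0.03 ± 0.26, in order of brightness, with adjusted p of 0.573, 0.592 and 0.952 (limma). The intervals of these changes ran from -0.49 to 0.21, from -0.68 to 0.31 and from -0.57 to 0.63, so the data leave room for changes of either sign. Over all 6 butyrate arrays against DMH the 3 probes changed by 0.12 ± 0.21, 0.16 ± 0.27 and 0.77 ± 0.47 (adjusted p of 0.718, 0.725 and 0.293, limma), and the last passed in the fit with 3 groups (adjusted p = 0.0442, limma).

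Between the butyrate groups, A_52_P245119 was lower with tumors by 2.78-fold (log2 change -1.47 ± 0.26, adjusted p = 0.0181, limma). The brightest probe differed by -0.52 ± 0.15 (adjusted p = 0.0591, limma) and A_51_P397363 by -0.68 ± 0.22 (adjusted p = 0.0709, limma). In this comparison 33.1% of all tested probes had groups that did not overlap. Slide 1 holds arrays of both groups, and within it array 1 with tumors read -0.32 on A_52_P245119, below the 3 arrays without tumors at 0.76 to 1.57. With slide as a fixed block the difference was -1.55 and no longer passed. That estimate rests on these same arrays of slide 1, 1 with tumors and 3 without. Leaving out array 2 without tumors gave an adjusted p of 0.0505 and leaving out array 3 with tumors one of 0.0697, and a fit of these 2 groups alone gave 0.0818 (limma).

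The difference of 2 probes of 1 array cancels any constant by which the array is scaled, though not a scaling that depends on brightness, such as quantile scaling. A_52_P245119 minus the brightest probe, set to 0 at the DMH mean, was 0.08, 0.40 and 0.02 with tumors, 0.75, 1.23 and 1.40 without tumors, and -0.06, -0.10 and 0.16 in DMH. The 3 arrays without tumors stood apart from all others by this measure. Under quantile scaling the changes of these probes without tumors against DMH were 1.47 and 0.48, and under normexp with quantile scaling 1.34 and 0.34. For A_51_P397363 minus the brightest probe all 9 arrays lay between -0.35 and 0.34, with no group apart. The files give no probe sequence or position, so which part of the transcript each probe reads was not analysed here, nor whether A_52_P245119 reads another transcript.

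**Figure D2:**
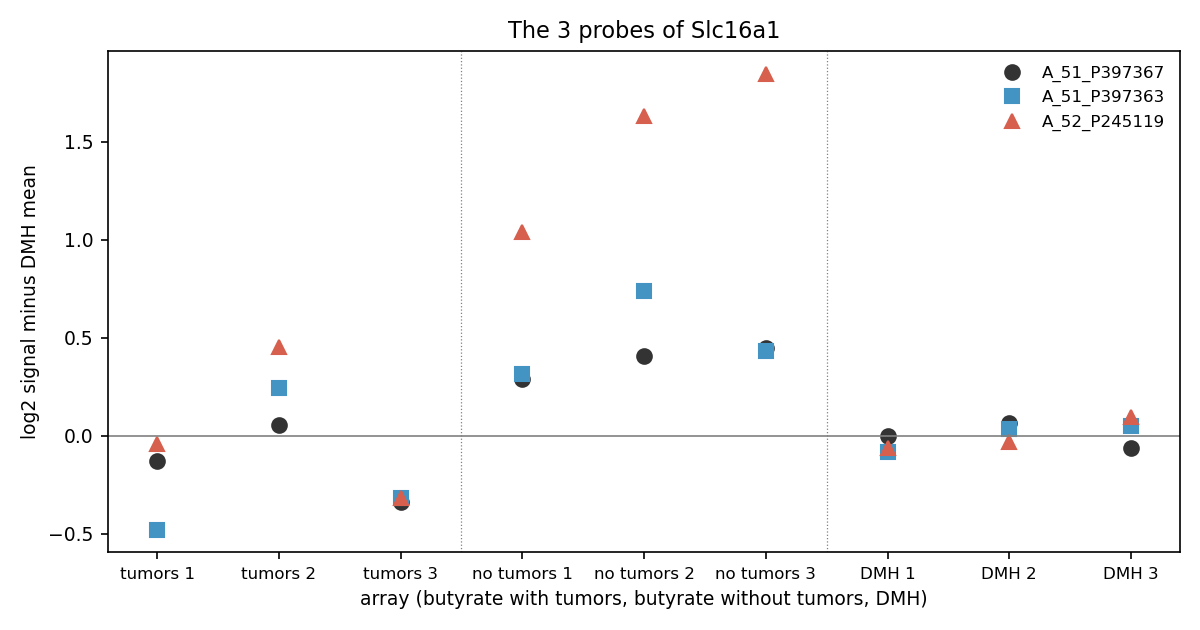
The 3 Slc16a1 probes on each array (horizontal axis, grouped as butyrate with tumors, butyrate without tumors, DMH), as log2 signal minus the probe's DMH mean (vertical axis). Each symbol is 1 probe on 1 array. On the 3 arrays without tumors all probes lie above 0 and A_52_P245119 lies 0.75 to 1.40 above the brightest probe.

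Slc16a7, the pyruvate and lactate carrier of high affinity, gave the dimmest signal relative to its array's 75th percentile but was well above background throughout. Its probe A_51_P466633 read -1.96, -2.23 and -2.39 in butyrate with tumors, -1.24, -1.45 and -2.34 in butyrate without tumors, and -1.60, -1.80 and -1.69 in DMH. All 3 arrays with tumors lay below all DMH arrays, as they did for 21.6% of all tested probes. The group without tumors held both higher and lower values than DMH. The change with tumors against DMH was -0.50 ± 0.28 (adjusted p = 0.262, limma), with an interval of -1.14 to 0.14. It was -0.52 ± 0.28 against the group without tumors (adjusted p = 0.224, limma), and 0.02 ± 0.28 without tumors against DMH (adjusted p = 0.965, limma), a value whose sign turned under other settings. Over all butyrate arrays the change was -0.24 ± 0.28 (adjusted p = 0.588, limma). In a fit without the 4 arrays of slide 1 the change with tumors against DMH was -0.62 with an adjusted p of 0.0428 (limma). That fit compares only arrays 2 and 3 with tumors with DMH.

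Slc16a3, the lactate exporter, showed overlapping groups in every comparison. A_51_P144090 read 2.69, 2.88 and 3.21 in butyrate with tumors, 3.15, 2.74 and 2.43 in butyrate without tumors, and 3.29, 3.06 and 3.03 in DMH. In each butyrate group 1 array lay within the DMH range and the other 2 lay below it. The change was -0.28 ± 0.20 for all butyrate against DMH (adjusted p = 0.379, limma), with an interval of -0.74 to 0.18. It was -0.20 ± 0.23 with tumors (adjusted p = 0.576) and -0.35 ± 0.23 without tumors (adjusted p = 0.255, limma), each against DMH. The 2 butyrate groups differed by 0.16 ± 0.23, an interval of -0.36 to 0.67, and this sign turned in the authors' deposited values.

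Bsg, the chaperone of MCT1 and MCT4, was lower in butyrate with tumors than in both other groups. A_51_P329441 read 2.96, 3.80 and 3.69 with tumors, 4.68, 4.12 and 4.40 without tumors, and 4.64, 4.72 and 4.52 in DMH. Every array with tumors lay below every array of the other groups, and array 1 with tumors was the lowest of all. Groups that do not overlap were frequent, at 42.8% of all tested probes with tumors against DMH (21.6% lower with tumors). Between the butyrate groups the share was 33.1% (16.8% lower with tumors). The means were 3.48 ± 0.45 with tumors, 4.40 ± 0.28 without tumors and 4.63 ± 0.10 in DMH (SD, n = 3 each). Against DMH the fall was 2.21-fold (log2 change -1.15 ± 0.25, interval -1.72 to -0.57, adjusted p = 0.0430, limma). Against the group without tumors it was 1.89-fold (log2 change -0.92 ± 0.25, interval -1.49 to -0.35, adjusted p = 0.0470, limma). Without tumors against DMH the change was -0.23 ± 0.25 (adjusted p = 0.506, limma), with 2 of 3 arrays below the lowest DMH array, and over all butyrate arrays it was -0.69 ± 0.34 (adjusted p = 0.197, limma).

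Both Bsg calls lay close to the threshold and the change kept its sign in every alternative run. The call against DMH was lost without any 1 DMH array (adjusted p of 0.101, 0.149 and 0.147 for arrays 1, 2 and 3), without array 2 or 3 without tumors (0.0675 and 0.0631) and without array 3 with tumors (0.0706). Quantile scaling gave 0.0683 and normexp correction 0.0558 against DMH, and 0.0986 and 0.105 between the butyrate groups. It was also lost with slide as a random block (-1.21, adjusted p = 0.143, limma). With slide as a fixed block the change between the butyrate groups was -1.44. Only slide 1 holds both of these groups, so that estimate rests on array 1 with tumors against the 3 arrays without. The call between the butyrate groups was lost without any 1 array other than arrays 1 and 2 with tumors, with adjusted p of 0.0705 to 0.119 (limma). On slide 1, the source of the fixed-block estimate, array 1 with tumors read 2.96, below the 3 arrays without tumors at 4.12 to 4.68.

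**Figure D3:**
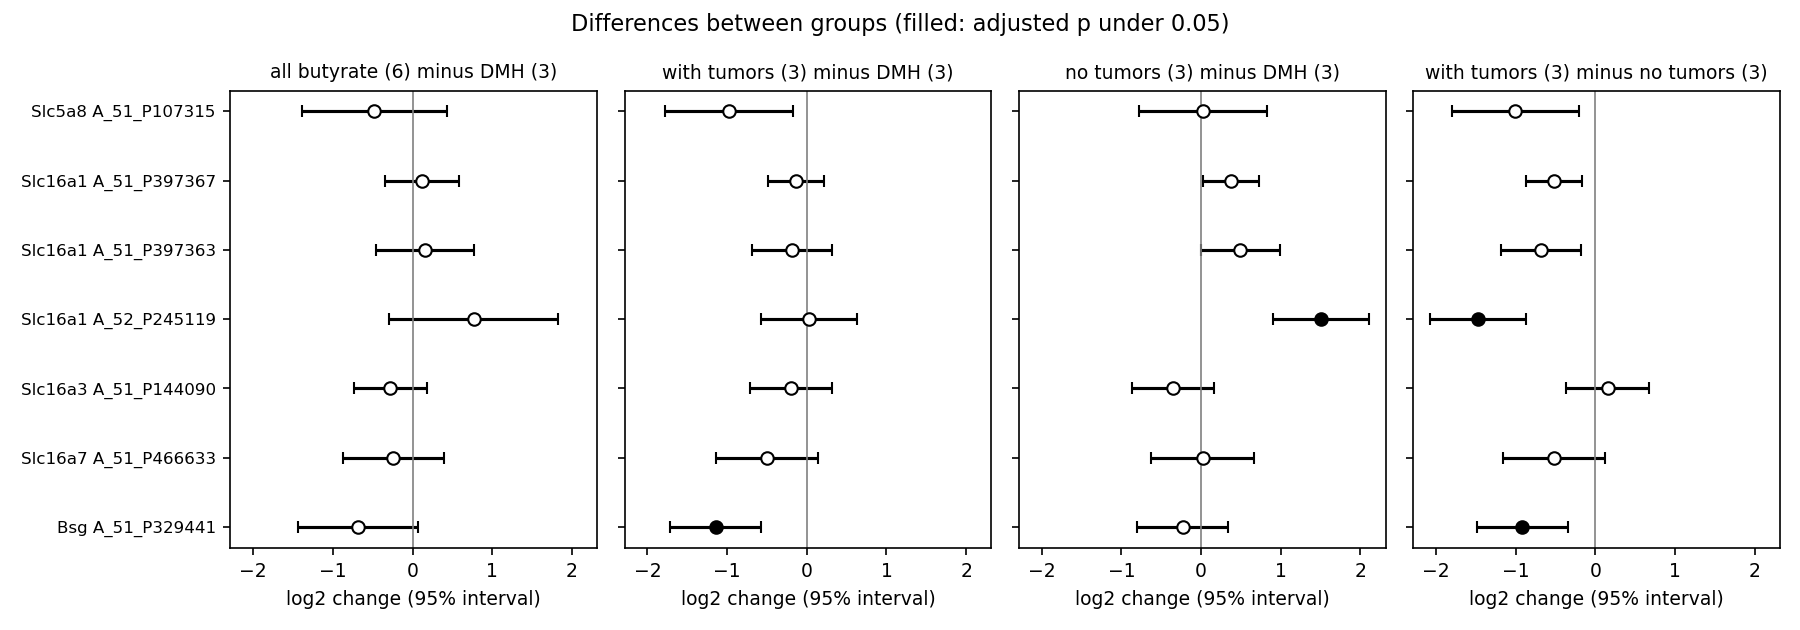
Change of each of the 7 probes (log2, horizontal axes) for all butyrate (n = 6) minus DMH (n = 3), butyrate with tumors minus DMH, butyrate without tumors minus DMH, and with tumors minus without tumors (n = 3 each). Circles are limma estimates, bars are 95% intervals and filled circles mark an adjusted p under 0.05: Bsg at -1.15 and -0.92, and Slc16a1 A_52_P245119 at 1.50 and -1.47.

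Epithelial markers differed between the groups as well. Of the 10 epithelial markers, 4 fell with tumors against DMH (Krt19, Cdx1, Cdx2 and Lgals4) and 6 fell without tumors against DMH, among them Epcam, Krt8 and Krt18. Of all tested probes 2.36% were called lower in the first of these comparisons and 14.7% in the second. The median change of the list was -0.71 with tumors and -0.89 without tumors against DMH. Quantile scaling gave 2 lower with tumors, and 3 lower and 1 higher without tumors. Their summed signal, in units of the array's 75th percentile, was 610 to 916 with tumors, 513 to 711 without tumors and 1233 to 1427 in DMH. Of the 10 markers of absorptive colonocytes, the cells that take up butyrate at the surface, 2 fell with tumors against DMH (Car1 and Fabp2), 2 rose without tumors against DMH (Slc26a3 and Aqp8) and 3 fell with tumors against without tumors (Car1, Car4 and Cdhr5). In the authors' deposited values 9 of the 10 were lower in this last comparison, and 5 were lower with tumors against DMH. Both counts include a downward shift of the whole array in those values. The list median was -1.13 there against -0.84 as reported between the butyrate groups, and -0.89 against -0.72 with tumors against DMH. Their sum was 295 to 435 with tumors, 571 to 1022 without tumors and 588 to 720 in DMH. No marker of either list was at 0. In bulk RNA, fewer cells of a type and less RNA per cell cannot be told apart.

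Set against these markers, Bsg, Slc5a8 and Slc16a1 A_52_P245119 gave unlike pictures by list: the butyrate groups lay apart on the epithelial list and overlapped on the absorptive one. Bsg minus the median epithelial marker, with DMH near 0, was -0.70 to -0.27 with tumors, 0.53 to 0.86 without tumors and -0.07 to 0.12 in DMH. Bsg minus the median absorptive marker was -0.85 to -0.12 with tumors, -0.73 to -0.27 without tumors and -0.15 to 0.16 in DMH, so by that measure the butyrate groups overlapped. Slc5a8 minus the median epithelial marker was -0.65 to 0.45 with tumors, 0.58 to 1.17 without tumors and -0.03 to 0.05 in DMH. Slc5a8 minus the median absorptive marker was -0.72 to 0.63 with tumors, -1.01 to 0.33 without tumors and -0.09 to 0.09 in DMH. For the dimmest Slc16a1 probe the same difference from the epithelial median was 0.35 to 0.98 with tumors, 1.85 to 2.71 without tumors and -0.14 to 0.17 in DMH. Slc16a1 A_52_P245119 minus the median absorptive marker was 0.37 to 1.17 with tumors, 0.26 to 1.87 without tumors and -0.22 to 0.21 in DMH. The part of either marker list in the transporter results was not tested.

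**Figure D4:**
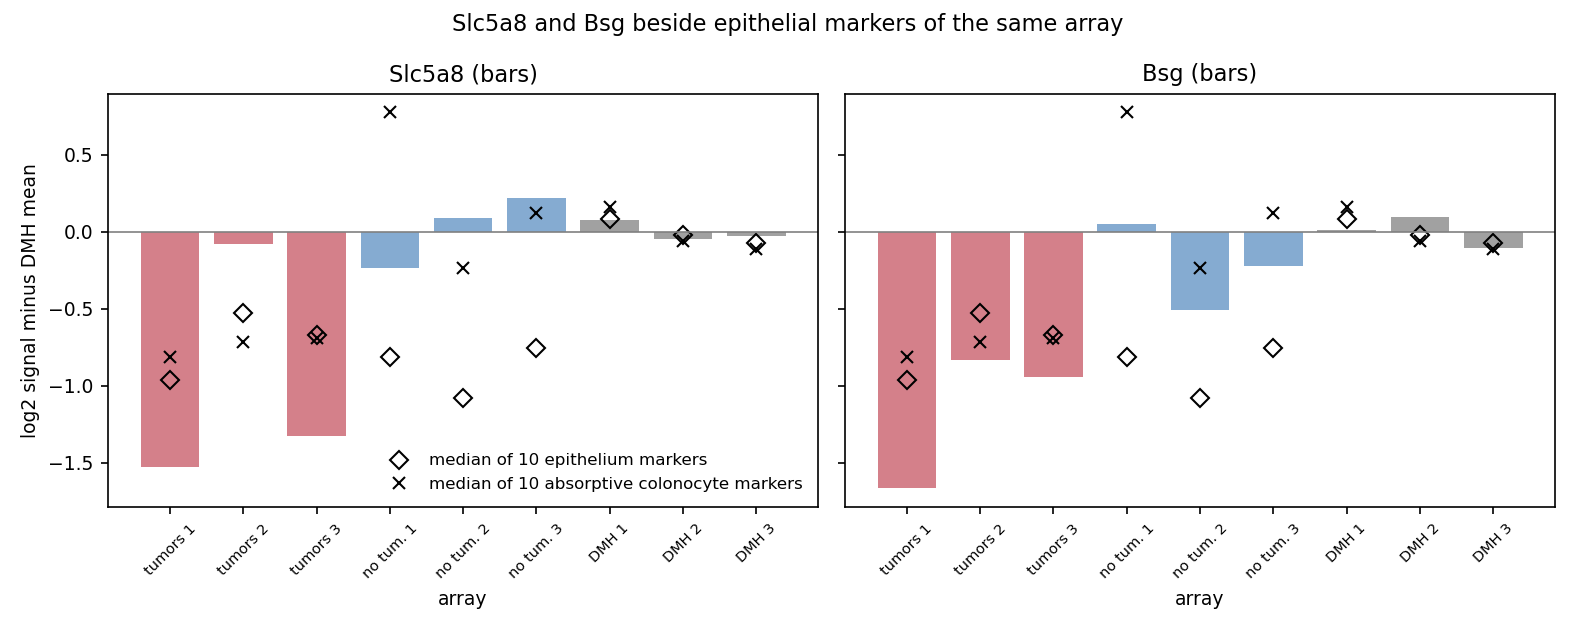
Slc5a8 (left) and Bsg (right) on each array as bars of log2 signal minus the DMH mean, with the median of 10 epithelial markers (diamonds) and of 10 absorptive colonocyte markers (crosses) of the same array, on the same scale. Bars are 1 array each, red for butyrate with tumors, blue for butyrate without tumors and grey for DMH. The epithelial median lies between -1.08 and -0.53 on all 6 butyrate arrays, whereas the absorptive median is below -0.69 on all 3 arrays with tumors and above -0.24 on all 3 without.

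Other cells differed too. Of the 10 smooth muscle markers, 5 rose without tumors against DMH, among them Actg2, Myh11 and Cnn1, and 0 were called with tumors against DMH, while their sum was 526 to 1006 with tumors, 440 to 971 without tumors and 272 to 475 in DMH. All 5 tested neutrophil markers of 9 listed (Cxcr2, Camp and Ngp were too dim and Ly6g has no named probe) fell without tumors against DMH, with sums of 0.569 to 5.79 with tumors, 0.127 to 0.327 without tumors and 3.65 to 3.95 in DMH. Of the other lists, 3 of 9 macrophage markers fell, and 3 of 8 endothelial and 1 of 8 fibroblast markers rose, without tumors against DMH, while 2 of 7 fat cell markers fell with tumors against DMH. Between the butyrate groups, 4 of 5 neutrophil, 2 of 9 macrophage and 1 of 8 fibroblast markers were higher with tumors than without, and 2 of 8 endothelial and 1 of 7 fat cell markers were lower. Quantile scaling left 1 neutrophil and 1 macrophage marker higher in that comparison. The part of these cells in the changes of Bsg and Slc16a1 A_52_P245119, which were seen on the same arrays, was not tested.

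Because the constant that scales an array cancels in the difference between 2 genes on it, though quantile or normexp scaling would not, the 10 pairs among the 5 genes (brightest probes) were also compared, after their values were known. Slc16a1 minus Bsg was above every DMH array on all 6 butyrate arrays, by a mean of 1.01 with tumors, 0.61 without tumors and 0.81 over both groups relative to DMH. Its spread was 0.24 to 1.54 in butyrate and -0.03 to 0.05 in DMH, with an exact permutation p of 0.0238 (2-sided, 6 against 3), the smallest this design can give, and 0.119 adjusted over the 10 pairs. Slc5a8 minus Slc16a1 was below every DMH array on all 6 butyrate arrays, by a mean of -0.84 with tumors, -0.36 without tumors and -0.60 over both (exact permutation p = 0.0238, adjusted 0.119). Neither passed after adjustment, and the other 8 pairs had an exact permutation p of 0.238 or more. Among single probes, 26.5% of all tested had butyrate and DMH groups that did not overlap. The share among differences of 2 genes was not computed. Slide and scan day cannot be told apart from treatment here either.

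Among relatives of these carriers, members of the Slc16a and Slc5a families moved in both directions. Of 10 tested other Slc16a genes of 11 listed, 1 rose and 1 fell for all butyrate against DMH: Slc16a4 (1.59 ± 0.29, adjusted p = 0.0264) and Slc16a13 (-1.15 ± 0.26, adjusted p = 0.0348, limma). With tumors against DMH, Slc16a4 rose (1.49 ± 0.34, adjusted p = 0.0468) and Slc16a5 fell (-0.80 ± 0.17, adjusted p = 0.0418, limma). In the group without tumors, 3 rose and 3 fell against DMH, with Slc16a5 now higher (0.81 ± 0.17, adjusted p = 0.0119), Slc16a6 lower (-1.08 ± 0.20, adjusted p = 0.00723), Slc16a4 higher by 1.68 and Slc16a13 lower by a change of -1.34 (limma). Slc16a5 was lower with tumors than without (change -1.61 ± 0.17, adjusted p = 0.00861, limma), and Slc16a6 (1.11) and Slc16a10 (1.14), of which Slc16a10 carries aromatic amino acids, were higher. The median changes of the family were -0.43, -0.29, 0.04 and -0.21 in the 4 comparisons, against 0.03, 0.03, 0.02 and 0.01 over all tested probes.

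Of 9 tested other Slc5a genes of 12 listed, Slc5a7, the choline carrier of cholinergic neurons, rose by 2.69 ± 0.45 for all butyrate against DMH (adjusted p = 0.0225, limma), and by 2.33 with tumors and 3.05 without tumors. Of 11 markers of enteric neurons and glia, 2 rose for all butyrate, Vip among them, 0 were called with tumors and 3 rose without tumors, each against DMH, while Chat, the enzyme of acetylcholine synthesis, changed by -0.29, -0.0031 and -0.57 without passing. The median of these markers was 1.16, 1.07 and 1.25 in the same order, with summed signals of 4.53 to 15.7 with tumors, 7.61 to 14.5 without tumors and 3.76 to 4.74 in DMH. Their part in the Slc5a7 change was not tested. Slc5a6, a carrier of vitamins such as biotin, rose without tumors against DMH (0.89 ± 0.22, adjusted p = 0.0203) and was lower with tumors than without (-1.38 ± 0.22, adjusted p = 0.0151, limma), as was the glucose carrier Slc5a1 (-1.17 ± 0.27, adjusted p = 0.0317, limma). Slc5a9, another sugar carrier, fell without tumors against DMH by a change of -0.86 (adjusted p = 0.0200, limma).

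Of 7 relatives and partners of basigin, none was called for all butyrate or with tumors against DMH. Emb, the embigin that escorts MCT2, changed by 0.82 ± 0.45 and 1.04 ± 0.53 in these (adjusted p of 0.245 and 0.219, limma). Without tumors against DMH, Nptn, the neuroplastin of the same immunoglobulin family, rose by 1.29 ± 0.27 (adjusted p = 0.0112), and Ppia, the cyclophilin that binds basigin outside the cell, fell by a change of -1.07 ± 0.17 (adjusted p = 0.00494, limma). Ppia was higher with tumors than without by 0.69 ± 0.17 (adjusted p = 0.0390, limma), the opposite direction to Bsg in that comparison. Of the 6 genes of apical efflux and anion exchange, Slc26a3, the chloride-bicarbonate exchanger of the colon surface, rose by 1.19 ± 0.25 (adjusted p = 0.0109) and Slc9a2, a sodium-proton exchanger, by 0.87 ± 0.24 (adjusted p = 0.0283, limma) without tumors against DMH. Slc9a2 was lower with tumors than without (change -1.69 ± 0.24, adjusted p = 0.0126, limma).

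Inside the cell, 6 of 13 genes of butyrate activation and oxidation were lower with tumors than without and none was called higher, where 6.51% of all tested probes were called lower. The other 7 did not pass, among them Etfa (0.67 ± 0.33) and Acss3 (0.72 ± 0.34), which had the opposite sign (adjusted p of 0.179 and 0.177, limma). The median change of the list was -0.72 against 0.01 over all tested probes. The count of lower genes was 4 with quantile scaling, 0 with no scaling and 7 of 12 tested in the authors' deposited values. The last count includes a downward shift of the whole array in those values, where the median of the 12 was -1.01 against -0.72 as reported. The 4 with the smallest p were Hadh (-1.35 ± 0.22, adjusted p = 0.0148) and Acat1 (-0.78 ± 0.17, adjusted p = 0.0264), enzymes of the last steps of beta-oxidation, Acads (-0.77 ± 0.19, adjusted p = 0.0357), the short-chain acyl-CoA dehydrogenase, and Echs1 (-0.72 ± 0.18, adjusted p = 0.0402, limma). With tumors against DMH, Acads fell (-1.52 ± 0.19, adjusted p = 0.0183, limma) and no gene of the list rose. In the group without tumors, 3 rose against DMH, led by Bdh1 (1.34 ± 0.24, adjusted p = 0.00673), and 2 fell, Acads (-0.75 ± 0.19) and Etfa (-1.22 ± 0.33, adjusted p of 0.0198 and 0.0254, limma). Absorptive colonocytes are known to be rich in these enzymes; their markers are given above, and the part of those cells in these changes was not tested.

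Lactate and pyruvate enzymes changed in both directions. Ldha, the subunit of lactate dehydrogenase that makes lactate, changed by -0.22 ± 0.20 both with and without tumors against DMH (adjusted p of 0.474 and 0.404, limma). Ldhd, which handles D-lactate, fell by a change of -1.19 ± 0.23 for all butyrate against DMH (adjusted p = 0.0276, limma), the only call among 11 tested genes of 13 listed. Without tumors against DMH 2 rose and 4 fell, among them the pyruvate carrier subunits Mpc2 (-1.14 ± 0.15, adjusted p = 0.00272) and Mpc1 (0.80 ± 0.17, adjusted p = 0.0124), which moved apart, and Pdk1 (1.16 ± 0.22, adjusted p = 0.00787, limma), a kinase that inhibits pyruvate dehydrogenase. Between the butyrate groups Mpc2 was higher with tumors (0.70 ± 0.15, adjusted p = 0.0280) and Pdk1 lower (-0.81 ± 0.22, adjusted p = 0.0437, limma).

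Hypoxia genes were followed because Slc16a3 is a known target of hypoxia-inducible factors. Of 16, 1 fell for all butyrate against DMH (Eno1, -1.01 ± 0.24, adjusted p = 0.0388, limma) and none was called with tumors against DMH. Without tumors against DMH 4 rose and 2 fell, led by Bnip3 (1.30 ± 0.19, adjusted p = 0.00396) and with Car9 at 0.78 ± 0.17 (adjusted p = 0.0136, limma). With tumors against without, 4 fell and none rose, among them Car9 (-1.11 ± 0.17, adjusted p = 0.0138) and Bnip3 (-0.73 ± 0.19, adjusted p = 0.0442, limma). This count was 1 with quantile scaling and 9 in the authors' deposited values. The latter includes a downward shift of the whole array, with a list median of -0.72 against -0.43 as reported. Slc16a3 itself did not pass in any of these comparisons. In the array as a whole 5.27% of probes were called higher and 3.78% lower for all butyrate against DMH, 6.65% were called higher and 6.51% lower with tumors than without, and 15.5% were called higher and 14.7% lower without tumors than in DMH.

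Genes with the profile most like each probe over the 9 arrays were listed by Pearson's r among 15272 genes, as a description, since all values share arrays, slides and groups. For Slc5a8 they were Csrp2 (0.986), Atp8b1 (0.985) and Hmgn5 (0.984), and 138 genes had an r above 0.9. For Bsg they were Nrip1 (0.981), Fbxo36 (0.980) and 2610528J11Rik (0.979), with 212 genes above 0.9. For the Slc16a1 probes the first were Frs2 (0.982) at A_51_P397367, Ube3a (0.980) at A_51_P397363 and Serinc5 (0.993) at A_52_P245119, so no first gene was shared. Behind them came 0610040J01Rik (0.981) and Ankmy2 (0.980) at A_51_P397367, Slc4a4 (0.968) and BC016579 (0.963) at A_51_P397363, and Pdlim5 (0.991) and BC005537 (0.985) at A_52_P245119. Slc16a3 was most like Gpr139 (0.973), Kcnd3 (0.962) and Mmp11 (0.959), and Slc16a7 most like Mocs1 (0.973), Vwa1 (0.971) and Dctn6 (0.964), with only 34 and 20 genes above 0.9. Among the members, the 3 Slc16a1 probes correlated with each other at 0.869 to 0.938 and Slc5a8 with them at 0.539 to 0.778, the highest for A_51_P397363. Slc5a8 correlated with Bsg at 0.803, but at 0.383 by Spearman's rho and at 0.458 after the group means were taken off. The lowest was Slc16a3 with Slc16a1 A_52_P245119 at -0.659.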

How the data were processed

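RNA from 9 samples was hybridised to 1-colour Agilent arrays of mouse genes, and 7 probes of 5 transporter genes are reported. Per the file headers, the deposited gProcessedSignal is intensity after background subtraction and spatial detrending in Feature Extraction (version 10.5.1.1), not scaled between arrays; the median spot and background intensity columns were used for normexp alone. The authors' deposited table gives log2 values for 21829 probes, each array's log2 gProcessedSignal minus 1 constant whose source is not given, and it served as an alternative. Centring therefore stays unknown for that table.

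Control spots were left out, outlier spots dropped, and remaining spots averaged per probe. Values are log2 gProcessedSignal minus the array's 75th percentile. Probes were tested if 3 or more of the 9 arrays had them well above background and each group had 2 values, 28521 of 41174. RefSeq accessions named 26933 probes; 4725 carry another accession in the DMH files, and the version of the butyrate files was used. No spot was saturated.

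limma 3.58.1 (lmFit, eBayes, 2-sided) in R 4.3.3 was fitted to all tested probes, with 2 groups for all butyrate against DMH and 3 groups otherwise, and p-values were adjusted by Benjamini-Hochberg over 28521 probes. The script was tested on simulated data. Per gene of a list the brightest probe was used. Named genes are all members and the 3 genes most alike to a member. The plan for the lists was up to 4 genes of a pathway list per comparison (called ones by smallest p first) and up to 3 called genes of a marker list. The text departs from it in places, among them the epithelial markers with tumors, Chat, Etfa, Acss3 and Slc16a5 without tumors. Named list genes are therefore not a strict ranking. The members and the lists were chosen with earlier results of these data known. Alternatives were other scalings, background corrections, filters, priors, thresholds, blocks and sets of arrays. Python 3.11.15, pandas 2.3.3, scipy 1.17.1 and matplotlib 3.10.9 gave the permutation tests and plots. The number of arrays limits the precision. Some genes of the lists are not reported here.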

Additional observations from a re-analysis of the deposited data

Results flagged for a closer look

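Both results below were marked because the effect against DMH differed between the 2 butyrate groups in the test of that difference. Slc16a1 A_52_P245119 differed by -1.47 (with tumors minus without, log2, adjusted p = 0.0181, limma), lower on 3 of 3 arrays with tumors than on any array without. Bsg A_51_P329441 differed by -0.92 (adjusted p = 0.0470, limma), again lower on 3 of 3 arrays with tumors. In this comparison 33.1% of all tested probes had groups that did not overlap, 16.8% with the lower values in the group with tumors. Over the 6 butyrate arrays no array stood apart from the others on any member probe by Dixon's test, and groups of 3 arrays were not examined.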

How the results depend on the processing

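Counts below are of all probes called, then of the 7 member probes called, where they moved by more than 1.5 times from the reported ones (2580 and 0 for all butyrate against DMH, 1503 and 1 with tumors against DMH, 8605 and 1 without tumors against DMH, 3755 and 2 for butyrate with tumors against without). The last comparison is called "between the groups" below. The cause was not tested.

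Quantile scaling gave 0 member calls with tumors against DMH, 2 without tumors against DMH and 1 for the 2 butyrate groups; it turned Slc16a1 A_51_P397367 to 0.038 with tumors and Slc5a8 to -0.089 without tumors, both against DMH. No scaling put the median change of all probes at -0.82, -0.58, -1.06 and 0.48 in the order above. It gave 39, 39, 2188 and 0 calls (limma, with 5615, 1744, 8490 and 3279 at an unadjusted p under 0.05), with 0 member calls in the last 3 comparisons. There Slc16a1 turned to -0.72, -0.69 and -0.079 (bright to dim) for all butyrate, A_52_P245119 to -0.58 with tumors, and Slc5a8, Slc16a1 A_51_P397367, A_51_P397363 and Slc16a7 to -1.06, -0.70, -0.58 and -1.06 without tumors, all against DMH. Of the list genes called without tumors against DMH, Slc16a5, Slc16a11, Slc5a6, Slc9a2, Mpc1, Hadh, Acat1, Car9, Egln3 and the endothelial markers Vwf and Emcn turned sign with no scaling too. Krt19 did so with quantile scaling. Normexp with quantile scaling gave 0 member calls with tumors against DMH and 1 between the groups, with Slc5a8 at -0.11 without tumors against DMH. Quantile scaling also called 5 smooth muscle markers higher for all butyrate in place of 2, 1 epithelial marker lower in place of 5, and no Slc5a gene with tumors against DMH in place of 1. The authors' values, whose median probe lay at 0.03, -0.15, 0.21 and -0.36 in the same order, gave 3109 and 2 calls with tumors against DMH and 5907 and 5 between the groups, with A_52_P245119 at -0.15 in the first and Slc16a3 at -0.14 in the second.

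With no filter on dim probes the counts were 647 for all butyrate, 183 and 0 with tumors against DMH, and 1839 and 1 between the groups. With 1 probe per gene, which leaves out A_52_P245119, 0 members were called without tumors against DMH and 1 for the 2 butyrate groups. Array weights gave 15049 and 4 for all butyrate, 6576 and 2 with tumors, 17643 and 5 without tumors, and 10206 and 4 between the groups; A_52_P245119 turned to -0.059 and Slc16a3 to 2.313e-04 with tumors against DMH. A threshold of 0.1 gave 5924, 4962 and 7371 calls for all butyrate, with tumors, and between the groups, and 2 and 5 member calls without tumors and between the groups. A threshold of 0.01 gave 30, 14, 2674 and 39 calls, with 0 member calls with tumors and between the groups.

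Same-numbered arrays of different groups correlated at 0.02 to 0.27 in their deviations from the group means, and differently numbered ones at -0.25 to 0.25. Arrays numbered 1 correlated best with each other in every pair of groups (0.19, 0.27 and 0.13), but not every array 2 or 3 did so. The main fits therefore used no pairing, and these values do not exclude a batch shared by number. With the replicate block the counts were 669 for all butyrate, 440 and 0 with tumors against DMH, and 1 member between the groups. Slide as a random block gave 26, 15 and 1165 calls against DMH (all butyrate, with tumors, without tumors), 0 member calls with tumors and without tumors, and Slc16a7 at -0.085 without tumors. Slide as a fixed block compares the butyrate groups on slide 1 alone, 1 array with tumors against 3 without, and put Slc16a3 at -0.082 between the groups. Without the arrays of slide 1 the only butyrate arrays left are arrays 2 and 3 with tumors. All butyrate and with tumors against DMH are then the same fit, which gave 3633 and 2. In it Slc16a1 A_51_P397367 was at -0.14 and A_51_P397363 at -0.037, without any array of the group without tumors. With DMH arrays 2 and 3 averaged the counts were 20 for all butyrate, 9 and 0 with tumors, 3630 without tumors with Slc16a7 at -0.0052, and 1280 and 1 between the groups. With 3 groups in the fit all butyrate against DMH gave 6468 and 1. With only the 2 groups compared the counts were 440 and 0 with tumors, 3 members without tumors, and 1 and 0 between the groups.

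Leaving out 1 array at a time gave 26 to 4645 calls for all butyrate, 11 to 2210 with tumors (0 to 2 members), 3570 to 12833 without tumors, and 199 to 9911 between the groups (0 to 4 members). The lowest counts came without DMH array 2, DMH array 3, DMH array 2 and tumor array 3, in that order. Over these fits A_52_P245119 ran from -0.18 to 0.20 with tumors against DMH, Slc5a8 from -0.075 to 0.15 and Slc16a7 from -0.20 to 0.35 without tumors against DMH, and Slc16a3 from -0.017 to 0.34 between the groups. Of the called members, Bsg kept its call in 12 of 27 alternatives against DMH and in 11 of 27 between the groups, and A_52_P245119 in 23 of 25 without tumors against DMH and in 20 of 26 between the groups, with no change of sign. Keeping outlier spots, both stricter filters on dim probes and a trend and robust prior changed none of these 4 calls.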
